A study of Homo sapiens with 24 samples.

Results

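The 9 genes described here carry the type I interferon signal from the cell surface to the nucleus. They are IFNAR1 and IFNAR2 (the receptor chains), JAK1 and TYK2 (the receptor kinases), STAT2 and IRF9 (subunits of the ISGF3 transcription factor), IRF1 and IRF2 (interferon regulatory factors) and SOCS1 (an inhibitor of the kinases). They were chosen by symbol, and all 9 were found among the 18632 genes tested. Each has 1 log2 expression value per well, measured on Affymetrix arrays.

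Type I interferons bind a receptor made of IFNAR1 and IFNAR2, which brings the kinases TYK2 and JAK1 together so that they phosphorylate STAT proteins. STAT2 and IRF9 are subunits of ISGF3, which binds interferon-stimulated response elements (ISRE) and switches on interferon-stimulated genes. IRF1 is an activator induced by interferon gamma through gamma-activated sequences (GAS) and also by NF-kB, IRF2 competes with it for the same elements, and SOCS1 is induced by the signal and shuts the kinases off.

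The study depleted COPZ1, whose product is a zeta subunit of the coat on Golgi COPI vesicles, in 2 human thyroid cell lines, and its title names a type I interferon response. Nthy-ori 3-1, made by SV40 immortalisation of normal human follicular cells, was grown in an RPMI medium, and TPC-1, derived from papillary thyroid carcinoma, in DMEM. In every group cells received 20 nM siRNA with a lipid transfection reagent. The depleting reagent, siCOPZ1, is esiRNA (many duplexes from one long RNA), and the control, siNT, is a single non-targeting duplex, so the kind of reagent cannot be told apart from the depletion, nor the medium from the line. Wells were collected at 48 h or 72 h, which gives 8 groups of line, siRNA and time with 3 wells each. The wells are called triplicates with no separate experiments named, so p values measure only the spread between wells. In bulk samples, fewer cells of a type and less RNA per cell cannot be told apart.

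COPZ1 was lower in every siCOPZ1 well than in every siNT well of its line and time. Its level was 25.8% and 33.6% of siNT in Nthy-ori 3-1 at 48 h and 72 h, and 10.5% and 22.2% in TPC-1 (exact two-sided permutation p = 0.1 each, the smallest that 3 wells against 3 allow). Arrays of a group correlated at 0.971 to 0.989 across genes. In all 4 TPC-1 groups the array numbered 1 had the lowest mean correlation with its group, 0.976 to 0.980, and results that rest on it are also given without the arrays numbered 1. Of the thyroid markers, PAX8 was bright in both lines (mean levels of 10.4 in Nthy-ori 3-1 and 12.3 in TPC-1), while 9 and 10 of the 12 markers, TG and TSHR among them, lay below the median gene. All 6 leukocyte and all 3 endothelial markers lay below it in both lines. So did 3 of the 5 measured epithelial markers in Nthy-ori 3-1 and 4 in TPC-1. Of the 4 fibroblast markers, 2 lay below it in Nthy-ori 3-1 and 3 in TPC-1. COL1A1 had mean levels of 11.1 in Nthy-ori 3-1 and 6.06 in TPC-1, and PDGFRB 8.63 and 7.27. COL3A1 had 4.44 and 4.67, and DCN 3.25 and 3.30.

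The promoters of 3 of the genes are shown because they carry elements that the pathway or NF-kB acts on. RefSeq promoter sequences (GRCh38.p14) were at hand for 7 of the 9 genes, 10 promoters in all. IFNAR2 and IRF2 had none at hand, so they were not searched. The 250 bases before each transcription start were searched on both strands for GAS (TTCNNNGAA), ISRE (GAAANNGAAA) and the NF-kB consensus. Capitals mark the matches, which do not overlap each other. IRF1 is at chr5:132490774-132491023 on the minus strand, IRF9 at chr14:24161015-24161264 on the plus strand and SOCS1 at chr16:11256205-11256454 on the minus strand.
IRF1: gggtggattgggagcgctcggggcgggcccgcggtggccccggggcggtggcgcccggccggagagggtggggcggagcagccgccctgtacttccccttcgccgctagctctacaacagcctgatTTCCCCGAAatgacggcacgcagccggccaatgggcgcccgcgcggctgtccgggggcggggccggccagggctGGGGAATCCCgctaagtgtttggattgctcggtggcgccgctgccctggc
IRF9: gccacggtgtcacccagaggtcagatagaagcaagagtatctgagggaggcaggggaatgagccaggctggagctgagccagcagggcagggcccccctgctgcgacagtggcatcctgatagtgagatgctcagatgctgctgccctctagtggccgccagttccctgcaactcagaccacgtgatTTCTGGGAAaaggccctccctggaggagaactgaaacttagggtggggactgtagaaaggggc
SOCS1: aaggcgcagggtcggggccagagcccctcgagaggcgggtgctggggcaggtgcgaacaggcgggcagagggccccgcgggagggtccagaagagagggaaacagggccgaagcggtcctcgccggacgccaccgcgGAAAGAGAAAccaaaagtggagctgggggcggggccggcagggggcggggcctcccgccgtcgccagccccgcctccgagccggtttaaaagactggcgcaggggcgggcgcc
The IRF1 promoter holds a GAS match 124 to 116 bases before the start and an NF-kB consensus match 50 to 41 bases before it. That of IRF9 holds a GAS match 63 to 55 bases before the start, and that of SOCS1 an ISRE match 113 to 104 bases before it. Among all 35116 promoters of this length, 6.57% hold GAS, 3.02% ISRE and 5.21% the NF-kB consensus, and a match is a string of letters, not evidence of binding.

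After COPZ1 depletion, 2 of the 9 genes changed, and both rose in TPC-1 at 72 h: IFNAR2 by 2.35-fold and IRF1 by 2.08-fold. In that comparison 14.4% of all genes were called at a limma adjusted p under 0.05, namely 7.03% higher and 7.42% lower, and with 9 genes a count of 2 beside these shares is not a result about the set. The median difference of the 9 genes was 0.41 on the log2 scale, against a median of -0.005 over all genes, with differences from -0.50 to 1.23. For 5 of the 9 genes all siCOPZ1 wells lay above all siNT wells, which was so for 14.0% of all genes.

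None of the 9 genes was called in the other comparisons of siCOPZ1 with siNT. In TPC-1 at 48 h, where 0.166% of all genes were called, differences ran from -0.27 to 0.64, and 1 of the 9, TYK2, had an unadjusted p under 0.05, as had 1685 of all genes. That share is 31 genes, and it fell to 6 genes without siCOPZ1 well 2, to between 8 and 14 without any 1 of the siNT wells or siCOPZ1 well 1, and to 3 without the arrays numbered 1. Without siCOPZ1 well 3 it was 38 genes, and with the well number as a replicate block, which pairs these wells, 78. In Nthy-ori 3-1 they ran from -0.25 to 0.39 at 48 h and from -0.36 to 0.25 at 72 h, with none of the 9 at an unadjusted p under 0.05 (906 and 574 of all genes). At each time, and over the mean of both times (-0.10 to 0.24), 0.00537% of all genes were called, which is COPZ1 alone. Over both times none of the 9 had an unadjusted p under 0.05, as 890 of all genes did.

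**Figure D1:**
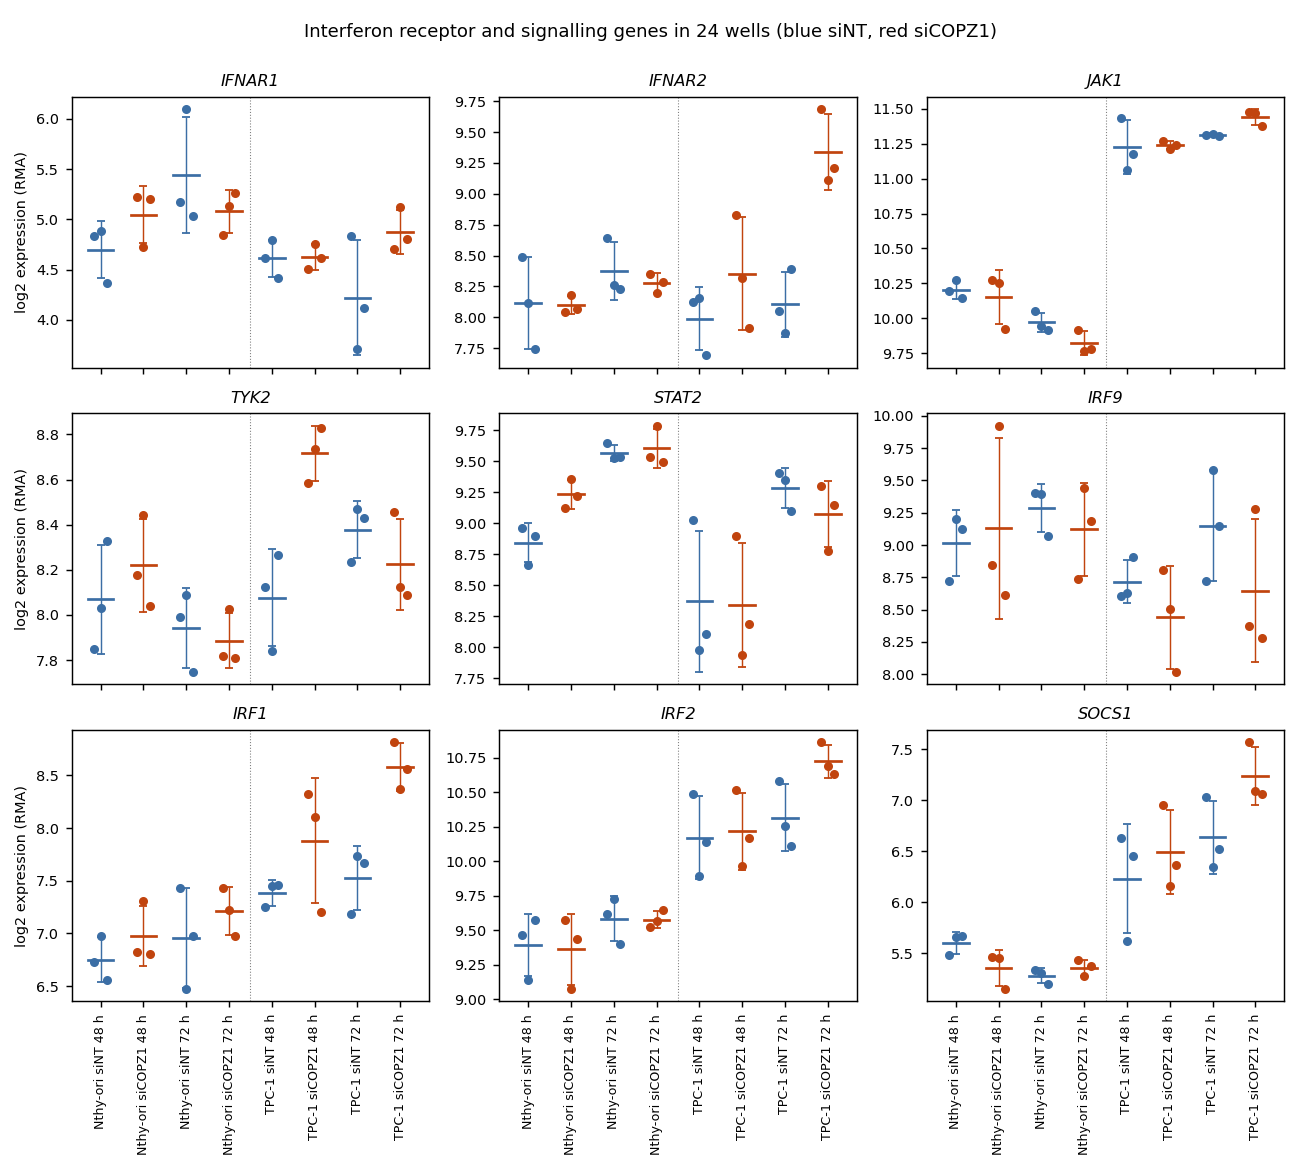
Log2 expression of each gene (vertical axis, scaled per gene) in the 3 wells of each of the 8 groups (horizontal axis), with siNT in blue and siCOPZ1 in red. Bars mark group means and whiskers the SD, and the TPC-1 siCOPZ1 wells at 72 h are the highest for IFNAR2, IRF1, IRF2 and SOCS1.

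The signalling chain of the receptor, IFNAR2, rose in TPC-1 at 72 h. Its levels there were 9.69, 9.11 and 9.21 with siCOPZ1 and 8.05, 7.87 and 8.39 with siNT. These siCOPZ1 wells lay above all other wells of the study, of which the highest was 8.83. The difference was 1.23 ± 0.22 (SE, log2, 3 wells per group, limma adjusted p = 0.000665), and without the arrays numbered 1 it was 1.03 (adjusted p = 0.0114). At 48 h the TPC-1 wells were spread from 7.91 to 8.83 with siCOPZ1 and from 7.69 to 8.15 with siNT, and the groups overlapped (0.36 ± 0.22, limma adjusted p = 0.680).

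In Nthy-ori 3-1, IFNAR2 lay between 7.74 and 8.65 in all 12 wells, with differences of -0.02 ± 0.22 at 48 h and -0.10 ± 0.22 at 72 h (limma adjusted p = 0.999 and 1.00). Ordered by group mean, TPC-1 siCOPZ1 at 72 h stood first at 9.34 ± 0.31 (SD, n = 3) with no overlap to the next group. The other 7 groups, from 8.38 down to 7.99, each overlapped their neighbour. The response of IFNAR2 to depletion at 72 h in TPC-1 exceeded that in Nthy-ori 3-1 by 1.33 ± 0.31 (95% interval 0.68 to 1.99, limma adjusted p = 0.0180). It was the only 1 of the 9 genes called in this test of the lines, in which 4.02% of all genes were called and 1.85% called higher. The call was lost without Nthy-ori 3-1 siNT array 1 (1.20, adjusted p = 0.0554) and without all arrays numbered 1 (1.03, adjusted p = 0.122).

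IFNAR1, the chain that binds TYK2, was dim, with a mean of 4.82 over all arrays against a bound of 5.51 for the dimmest tertile of genes. In TPC-1 at 72 h its levels were 4.71, 5.12 and 4.80 with siCOPZ1 and 4.84, 3.71 and 4.12 with siNT. The groups overlapped through siNT well 1 only. The difference was 0.66 ± 0.27 (limma adjusted p = 0.112), and without that well it was 0.97 (adjusted p = 0.0184). Without siNT well 2 it was 0.40 (adjusted p = 0.406), and without the arrays numbered 1 it was 1.05 and not called (adjusted p = 0.0562). The difference between the lines at 72 h was 1.02 ± 0.38 (limma adjusted p = 0.153; 0.0368 without the same well). In control wells IFNAR1 was lower in TPC-1, a difference from Nthy-ori 3-1 of -0.65 ± 0.19 (6 wells per line, limma adjusted p = 0.00754), with overlapping ranges of 3.71 to 4.84 and 4.37 to 6.10. The same TPC-1 siNT wells serve this comparison and that with siCOPZ1. All 7 neighbouring pairs in the order of its 8 groups overlapped.

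JAK1, the kinase that binds IFNAR2, separated the lines at every time and with either siRNA. Its 12 TPC-1 wells lay between 11.06 and 11.48 and its 12 Nthy-ori 3-1 wells between 9.76 and 10.27. In control wells the difference was 1.18 ± 0.08, or 2.27-fold (limma adjusted p = 1.51e-10). After depletion at 72 h the TPC-1 wells read 11.48, 11.47 and 11.38 against 11.31, 11.32 and 11.30 with siNT. The groups did not overlap, but the difference was 0.13 ± 0.11 (95% interval -0.11 to 0.36, limma adjusted p = 0.520). In Nthy-ori 3-1 at 72 h it was -0.15 ± 0.11 (adjusted p = 1.00).

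TYK2, the kinase that binds IFNAR1, had its highest wells in TPC-1 with siCOPZ1 at 48 h. They read 8.59, 8.74 and 8.83, against 8.13, 7.84 and 8.27 with siNT, and no other well of the study reached them. The difference of 0.64 ± 0.16 (1.56-fold) was not called (limma adjusted p = 0.111). Groups that did not overlap in this direction were found for 6.91% of all genes. At 72 h the siCOPZ1 wells read 8.46, 8.13 and 8.09 and the siNT wells 8.23, 8.47 and 8.43, which overlapped (-0.15 ± 0.16, limma adjusted p = 0.590). The change of the effect from 48 h to 72 h in TPC-1 was -0.79 ± 0.22 (limma adjusted p = 0.0665), and it passed at 0.0419 without siCOPZ1 well 1 at 72 h. All Nthy-ori 3-1 wells lay between 7.75 and 8.44.

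STAT2, the STAT that is particular to ISGF3 and its interferon lambda counterpart, rose with time in the control wells of TPC-1. These siNT wells read 9.02, 7.98 and 8.11 at 48 h and 9.41, 9.35 and 9.10 at 72 h. The groups did not overlap, as for 7.48% of all genes in this direction, and well 1 was the highest at 48 h. The rise of 0.92 ± 0.24 was called (limma adjusted p = 0.0483), 1 of the 9 genes against 2.10% of all genes. That share is 391 genes, and without single arrays it ranged from 10 genes (without well 2 at 48 h) to 1802 (without well 1 at 48 h). It was 47 without well 3 at 48 h, 56 and 30 without wells 1 and 3 at 72 h, and 844 without the arrays numbered 1. Without the arrays numbered 1 it was 1.18 (adjusted p = 0.00727). With only these 6 arrays in the fit it was not called (adjusted p = 0.437), nor in a fit of TPC-1 alone (0.255), nor without siNT well 2 or 3 at 48 h (0.308 and 0.167) or well 1, 2 or 3 at 72 h (0.145, 0.0966 and 0.107).

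With siCOPZ1, STAT2 in TPC-1 read 8.90, 7.94 and 8.19 at 48 h, where well 1 again stood apart, and 9.30, 8.78 and 9.15 at 72 h. Both sets overlapped the siNT wells (-0.03 ± 0.24 and -0.21 ± 0.24, limma adjusted p = 0.984 and 0.641). In Nthy-ori 3-1, STAT2 in siNT wells read 8.97, 8.67 and 8.90 at 48 h and 9.65, 9.53 and 9.54 at 72 h. This difference of 0.73 ± 0.24 was not called (limma adjusted p = 0.332). No gene was called between the times in these wells (0.00%), 1548 had an unadjusted p under 0.05, and groups did not overlap in this direction for 7.71% of all genes. Among the 9 genes, STAT2 and IFNAR1 were those 2 with an unadjusted p under 0.05, and both also did not overlap.

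IRF9, the subunit of ISGF3 that binds DNA, had the largest spread between wells of the 9 genes and was called in no comparison. In TPC-1 at 72 h the wells read 8.38, 9.28 and 8.28 with siCOPZ1 and 8.72, 9.58 and 9.14 with siNT, with well 2 the highest in both. The difference was -0.50 ± 0.32 (95% interval -1.16 to 0.15, limma adjusted p = 0.336). Group means ran from 8.44 to 9.29 and all 7 neighbouring pairs in their order overlapped. In Nthy-ori 3-1 with siCOPZ1 at 48 h a single well at 9.92 stood over wells at 8.85 and 8.61.

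IRF1 rose in TPC-1 at 72 h. Its levels were 8.81, 8.37 and 8.56 with siCOPZ1 and 7.18, 7.73 and 7.67 with siNT. Every siCOPZ1 well lay above every siNT well and above all other wells of the study. The difference was 1.05 ± 0.26 (limma adjusted p = 0.00833). Without the arrays numbered 1 it was 0.76 and no longer called (adjusted p = 0.118). At 48 h wells 1 and 2 with siCOPZ1 were high at 8.33 and 8.10, whereas well 3 at 7.20 lay below the 3 siNT wells of 7.25, 7.45 and 7.46 (0.49 ± 0.26, limma adjusted p = 0.602).

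In Nthy-ori 3-1 the IRF1 differences were 0.22 ± 0.26 at 48 h and 0.25 ± 0.26 at 72 h (limma adjusted p = 0.994 and 1.00). The response at 72 h was larger in TPC-1 by 0.80 ± 0.37, which was not called (95% interval 0.04 to 1.57, limma adjusted p = 0.271), so a difference of IRF1 between the lines was not shown. In control wells IRF1 was higher in TPC-1 by 0.60 ± 0.18 (limma adjusted p = 0.0110), with ranges of 7.18 to 7.73 and 6.47 to 7.43 that overlapped.

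IRF2, which can repress IRF1 targets, was higher in every well of TPC-1 than in any of Nthy-ori 3-1. Its 12 TPC-1 wells lay between 9.89 and 10.86 and its 12 Nthy-ori 3-1 wells between 9.08 and 9.73. The difference in control wells was 0.76 ± 0.13 (1.69-fold, limma adjusted p = 4.63e-05). With siCOPZ1 at 72 h the TPC-1 wells read 10.86, 10.69 and 10.63, above the siNT wells of 10.58, 10.25 and 10.11. The difference of 0.41 ± 0.18 was not called (limma adjusted p = 0.148). In Nthy-ori 3-1 it was -0.01 ± 0.18 at 72 h (adjusted p = 1.00).

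SOCS1 was also higher in TPC-1. In control wells it ranged from 5.62 to 7.03 in TPC-1 and from 5.20 to 5.66 in Nthy-ori 3-1, which overlapped only through siNT well 2 of TPC-1 at 48 h. The difference was 0.99 ± 0.17 (limma adjusted p = 4.19e-05). With siCOPZ1 at 72 h the TPC-1 wells read 7.57, 7.09 and 7.06, and the siNT wells 7.03, 6.35 and 6.52. The groups did not overlap, although siNT well 1 lay just under the lowest siCOPZ1 well. The difference of 0.61 ± 0.23 (1.52-fold) was not called (limma adjusted p = 0.0923), and without siNT well 1 it was 0.81 (adjusted p = 0.0382). Without other single arrays it went as low as 0.44, with an adjusted p of up to 0.297. Without the arrays numbered 1 it was 0.64 and not called (adjusted p = 0.0974). In Nthy-ori 3-1 it was -0.25 ± 0.23 at 48 h and 0.08 ± 0.23 at 72 h.

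**Figure D2:**
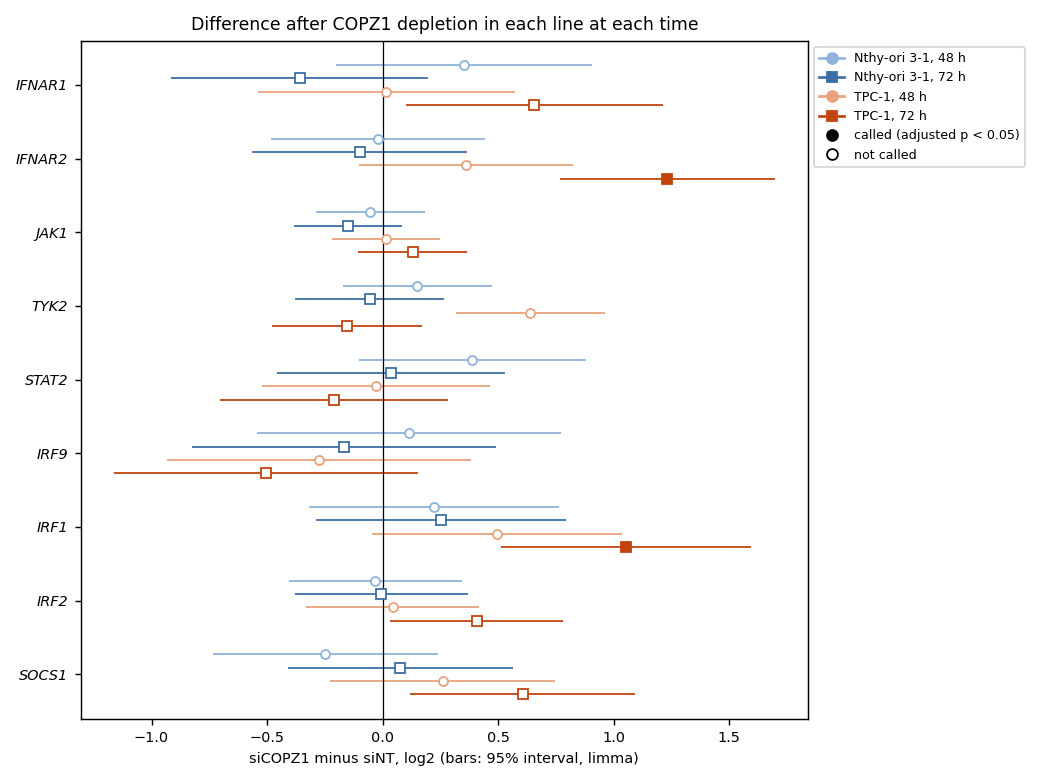
Difference of siCOPZ1 minus siNT on the log2 scale (horizontal axis) for each gene, by line and time, with 95% intervals from limma. Filled symbols passed an adjusted p of 0.05, which only IFNAR2 (1.23) and IRF1 (1.05) in TPC-1 at 72 h did.

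Between the lines without depletion, 5 of the 9 genes differed, 4 higher in TPC-1 (JAK1, SOCS1, IRF2 and IRF1) and 1 lower (IFNAR1). The share called among all genes was 44.1%, made up of 20.0% higher and 24.1% lower. STAT2 (-0.38 ± 0.17, limma adjusted p = 0.0725), TYK2 (0.22 ± 0.11, 0.113), IFNAR2 (-0.20 ± 0.16, 0.337) and IRF9 (-0.22 ± 0.22, 0.471) were not called. STAT2 was called without the arrays numbered 1 (-0.52, adjusted p = 0.00645). Without single arrays its difference ranged from -0.54 to -0.28, with a limma adjusted p from 0.00406 to 0.191.

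A difference of the siCOPZ1 effect between the lines at 48 h was not shown for any of the 9 genes. No gene was called there (0.00%), while 615 of all genes and 1 of the 9, TYK2 (0.49 ± 0.22), had an unadjusted p under 0.05. Between the times, the effect in TPC-1 was called for none of the 9 against 2.04% of all genes, with IFNAR2 at 0.87 ± 0.31 (limma adjusted p = 0.168) and IRF1 at 0.56 ± 0.37 (0.491). In Nthy-ori 3-1 no gene was called (0.00%), and 485 of all genes but none of the 9 had an unadjusted p under 0.05.

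**Figure D3:**
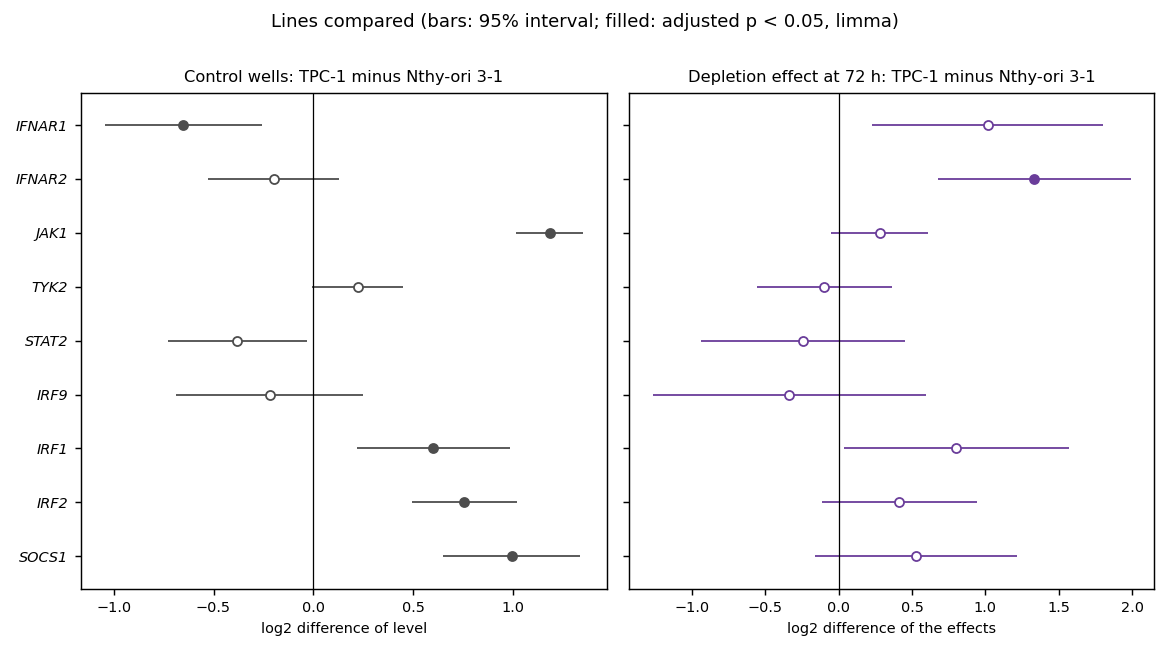
Left, TPC-1 minus Nthy-ori 3-1 in siNT wells over both times, and right, the siCOPZ1 effect at 72 h in TPC-1 minus that in Nthy-ori 3-1, both log2 with 95% intervals from limma. Filled points passed an adjusted p of 0.05: 5 genes on the left, with JAK1 the farthest at 1.18, and IFNAR2 at 1.33 on the right.

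Over the 8 group means, with the mean of each line subtracted, IFNAR2 moved most like IRF1 (Pearson r = 0.943) and IRF2 (0.924) among the 9 genes, and these values rest largely on the 1 TPC-1 siCOPZ1 group at 72 h. Among 1436 brighter genes that varied within a line, those most like IFNAR2 were C1QTNF1 (r = 0.992), CCL2 (0.989) and GFPT2 (0.989). Those most like IRF1 were HERPUD1 (0.990), TRIB3 (0.985) and MAP1LC3B (0.976). These genes were picked for the highest r. A gene could enter the comparison through the TPC-1 siCOPZ1 group at 72 h alone, where IFNAR2 and IRF1 were high. The means come from arrays normalised together and no test was made of these correlations.

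The genes of the interferons themselves were mostly dim and none passed the test after depletion. Of 21 ligand genes listed, 20 were measured, 18 of them in the dimmest tertile, and none was called in either line at either time. IFNB1, which encodes interferon beta, read 4.01, 3.79 and 4.15 with siCOPZ1 and 3.66, 3.57 and 3.83 with siNT in TPC-1 at 72 h (0.30 ± 0.14, limma adjusted p = 0.177). In control wells 20.0% of all genes were called higher in TPC-1 than in Nthy-ori 3-1 and 24.1% lower. Of the 20 ligand genes, 3 were called higher and none lower, and no test of the group was made. One of them, named after its values were seen, was IFNE, the gene of interferon epsilon, with a difference of 1.52 ± 0.25 (limma adjusted p = 3.09e-05). IFNA1 was not analysed here.

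Among the 12 related receptor chains, JAKs and STATs, 3 rose in TPC-1 at 72 h and none fell, with a median difference of 0.22 against -0.005 for all genes. Of all genes 7.03% rose and 7.42% fell there, and no test of the group was made. STAT5A, a STAT of cytokine receptors, rose by 1.18 ± 0.23 (limma adjusted p = 0.00117) and IFNGR2, a chain of the interferon gamma receptor, by 0.71 ± 0.17 (0.00720). JAK2, a kinase of the same receptor, rose by 0.66 ± 0.17 (limma adjusted p = 0.0126) and was named after its values were seen. None of the 6 other IRF factors was called.

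Of 16 other negative regulators, 2 rose and 2 fell in that comparison, where 7.03% and 7.42% of all genes did, with a median of -0.06. No test of the group was made. PTPN2, a phosphatase of JAKs and STATs, rose by 0.63 ± 0.13 (limma adjusted p = 0.00184), and CISH, a SOCS family inhibitor, fell by 0.63 ± 0.15 (0.00568). SOCS7 (0.53) and SOCS5 (-0.53), named after their values were seen, were the other two.

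Of 40 interferon-stimulated genes, 4 rose and 4 fell in TPC-1 at 72 h, with a median of 0.06. These counts lie near the shares of all genes, 7.03% higher and 7.42% lower. ISG20, an exonuclease, rose by 1.09 ± 0.27 (limma adjusted p = 0.00823) and PARP12, an antiviral ADP-ribosyltransferase, by 0.52 ± 0.11 (0.00280). The other two that rose were IFIT3 (0.98) and IFIH1 (0.88), and those that fell were IFI27 (-1.51), IFIT1 (-1.04), IFIT2 (-0.72) and PARP9 (-0.71), these 6 named after their values were seen. At 48 h, where 0.166% of all genes were called, only IFI6, a mitochondrial survival protein, was called, with a rise of 1.93 ± 0.35 (limma adjusted p = 0.0291). Its wells read 9.88, 11.68 and 10.50 with siCOPZ1 and 9.30, 8.31 and 8.65 with siNT. The IFI6 call was lost in a fit of only the arrays of that comparison and in a fit of TPC-1 alone, where no gene was called higher.

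Of 26 genes linked to IRF1, mainly of antigen processing and the guanylate-binding family, 6 rose and none fell in TPC-1 at 72 h, with a median of 0.25. Among all genes 7.03% rose and 7.42% fell, and no test of the group was made. WARS, a tryptophanyl-tRNA synthetase, read 11.88, 11.94 and 11.96 with siCOPZ1 and 10.78, 10.71 and 10.44 with siNT (1.28 ± 0.20, limma adjusted p = 0.000209). CD274, which encodes the checkpoint ligand PD-L1, read 8.22, 8.54 and 8.30 against 6.92, 6.95 and 6.45 (1.58 ± 0.28, limma adjusted p = 0.000501). In both genes the groups did not overlap.

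Of 16 NF-kB targets, 15 rose in the same comparison, with a median of 2.16 and no fall. There 7.03% of all genes rose and 7.42% fell, and no test of the group was made. The list, like the others, was chosen with earlier results of these data known. CCL20, a chemokine, rose by 4.10 ± 0.31 (limma adjusted p = 3.02e-08) and TRAF1, a signalling adaptor, by 4.26 ± 0.41 (7.07e-07). At 48 h, where 0.166% of all genes were called, TRAF1 (2.89 ± 0.41, limma adjusted p = 0.00365) and TNF (1.79 ± 0.34, 0.0414) were the 2 called. Both calls were lost in a fit of only the arrays of that comparison and in a fit of TPC-1 alone, where no gene was called higher. All 16 NF-kB targets had differences above 0 in TPC-1 at 48 h, from 0.40 to 3.86, with a median of 1.09 against 0.005 over all genes. In Nthy-ori 3-1 no gene of any of these lists was called at either time. The part of NF-kB signalling in the IRF1 and IFNAR2 values was not tested.

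Of the cell type markers, 3 fell in TPC-1 with siCOPZ1 at 72 h: FOXE1, a thyroid factor (-0.90), PDGFRB, a mesenchymal receptor (-1.50), and CD14, a monocyte receptor (-0.51). No marker was called higher, and 7.42% of all genes were called lower there. FOXE1 was 1 of 12 thyroid markers, of which 5 had differences above 0 (median -0.05). CD14 was 1 of 6 leukocyte markers, of which 3 did (median 0.09). None of the 5 measured epithelial and 3 endothelial markers was called (medians -0.42 and -0.16). The summed level of the 4 fibroblast markers was 7.36 to 7.64 with siCOPZ1 and 8.24 to 8.57 with siNT on the log2 scale. Of these 4 only PDGFRB was called, and COL1A1 (-0.25), DCN (0.13) and COL3A1 (0.27) were not, with a median of -0.06 over the 4. The summed level of the 6 leukocyte markers was 7.32 to 7.56 and 7.16 to 7.63, and that of the 12 thyroid markers 12.41 to 12.62 and 12.55 to 12.61, which overlapped. The thyroid sum rests mostly on PAX8, whose mean level in TPC-1 was 12.3 against a median of 5.02 over the 12 markers. It therefore tells little about the other thyroid markers. The leukocyte marker PTPRC had a mean level of 3.26 in TPC-1, with 4.94% of genes dimmer. The part of these shifts in the results was not tested.

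**Figure D4:**
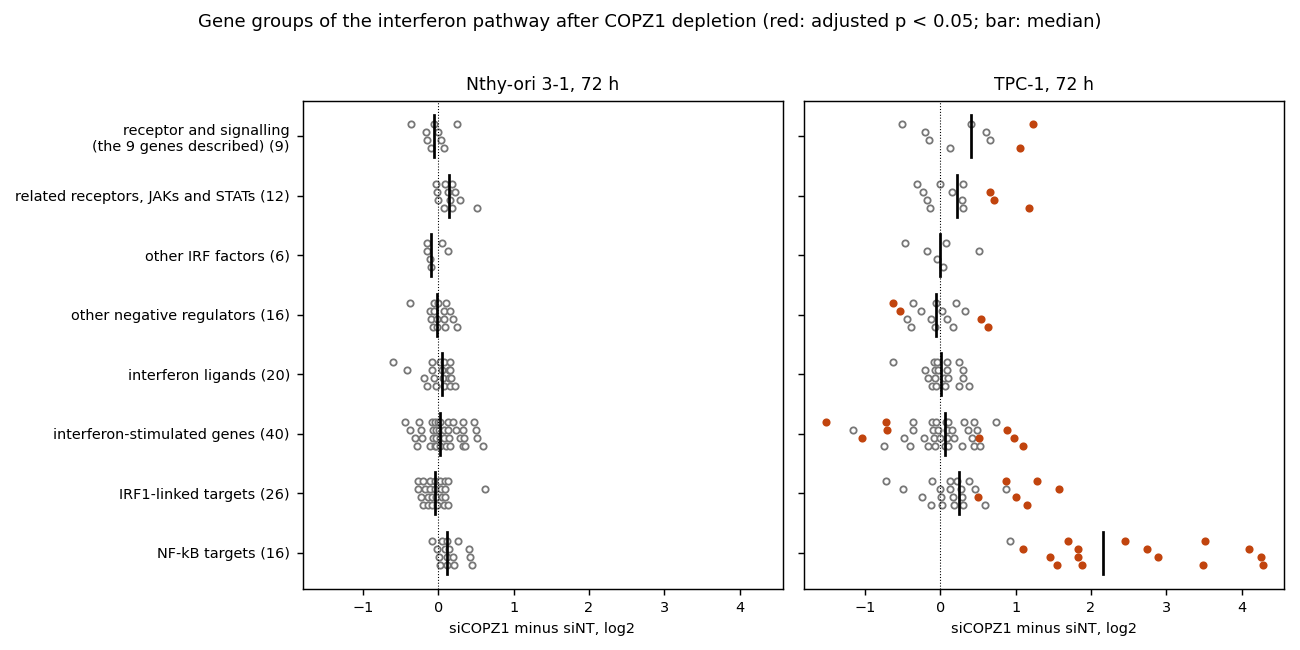
Difference of siCOPZ1 minus siNT at 72 h on the log2 scale (horizontal axis) for each gene of the 9 described and of 7 related groups (vertical axis, number of genes in brackets), with red points at an adjusted p under 0.05 and a bar at the median. In TPC-1 the median of the NF-kB targets is 2.16 and that of the interferon-stimulated genes 0.06, and in Nthy-ori 3-1 no point is red.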

How the data were processed

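Expression was measured on 24 Affymetrix arrays, 1 per well. The deposited table holds log2 values made by the authors with RMA, which corrects background, normalises arrays to one distribution and summarises probes, per the submitters' processing notes. It removes any shift common to most genes, and changes of dim genes such as IFNAR1 are compressed. For chip type, software version and build, the entry is: not given in the sources used here. The number of arrays limits the precision.

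The table has 18637 lines. Of its symbols, 28 had been turned into dates and were kept under Ensembl identifiers, and for 5 symbols on more than 1 line the brighter line was kept, leaving 18632 genes. The 24 arrays were fitted together, with a mean per group, by lmFit, contrasts.fit and eBayes of limma 3.58.1 (R 4.3.3), and 12 contrasts were tested two-sided with Benjamini-Hochberg adjustment over all genes, a gene being called at an adjusted p under 0.05. One spread per gene is shared by groups, although the lines' median residual SDs were 0.206 (Nthy-ori 3-1) and 0.250 (TPC-1). The procedure was tested on simulated data. An exact permutation test was added for COPZ1.

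The members and lists were chosen with earlier results of these data known. All 9 members and COPZ1 are described, and from each other list the 2 called genes with the smallest adjusted p in each siCOPZ1 comparison, with IFNB1 always. Some genes under this rule are not reported here. Genes of like pattern are the 3 with the highest Pearson r over the 8 group means. Same-numbered siCOPZ1 and siNT arrays deviated together beyond a correlation of 0.1 in all pairs only in TPC-1 at 48 h (0.404, 0.292 and 0.145), a pairing taken from the data, where the block changed no call among the 9 genes. Alternatives were a replicate block, fewer arrays, median centring, omission of dim genes, an intensity trend with a robust prior and omission of single arrays. The omission of all arrays numbered 1 was chosen after seeing the data.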

Additional observations from a re-analysis of the deposited data

Results flagged for a closer look

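The response of IFNAR2 to siCOPZ1 at 72 h differed between the lines. It was 1.23 in TPC-1 and -0.10 in Nthy-ori 3-1 on the log2 scale, a difference of 1.33 ± 0.31 (limma adjusted p = 0.0180). The call was lost without Nthy-ori 3-1 siNT array 1 (1.20, limma adjusted p = 0.0554) and without all arrays numbered 1 (1.03, 0.122).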

How the results depend on the processing

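Each of the 108 differences of the 9 genes was recomputed under the alternatives that apply to it, which gave 1689 values. Of these, 1585 kept their direction and their side of the threshold, 82 changed sign, 12 gained a call and 10 lost one. Of 9 called differences, 6 held throughout. The number of the 9 genes called in TPC-1 at 72 h was 2 and ranged from 2 to 4 when single arrays were left out (4 without siNT array 1, where IFNAR1 and SOCS1 joined), and was 1 without the arrays numbered 1. For the line difference at 72 h it was 1, with a range of 0 to 2 without single arrays (2 without TPC-1 siNT array 1, with IFNAR1), and 0 without the arrays numbered 1. For the change of the effect with time in TPC-1 it was 0, but 1 (TYK2, adjusted p = 0.0450) with the dimmest tertile left out, and 0 to 1 without single arrays. For siNT in TPC-1 over time it was 1 (STAT2), but 0 with only the arrays of the comparison and 0 with a separate fit for each line, and 0 to 1 without single arrays.

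Uncalled differences near 0 changed sign. Without the arrays numbered 1, STAT2 in TPC-1 at 48 h was 0.0202. In Nthy-ori 3-1, IFNAR2 was then 0.19 at 48 h and 0.0953 over both times, IRF9 was 0.0825 at 72 h and 0.0952 over both times, TYK2 and IRF2 were 0.0015 and 0.0397 at 72 h, and IRF1 in siNT wells was -0.0385 over time. IRF1 was -0.0891 in the line difference at 48 h. Median centring made IFNAR1 in Nthy-ori 3-1 0.0013 over both times. The ranges that follow are those without single arrays. In Nthy-ori 3-1 at 48 h they were -0.21 to 0.17 for IFNAR2, -0.11 to 0.0586 for JAK1, -0.28 to 0.37 for IRF9 and -0.16 to 0.11 for IRF2. At 72 h they were -0.17 to 0.0348 for IFNAR2, -0.15 to 0.0169 for TYK2, -0.0556 to 0.0888 for STAT2, -0.33 to 0.0260 for IRF9 and -0.0957 to 0.0651 for IRF2. Over both times they were -0.10 to 0.16 for IFNAR1, -0.15 to 0.0329 for IFNAR2, -0.0086 to 0.11 for TYK2, -0.23 to 0.10 for IRF9 and -0.0823 to 0.0530 for IRF2. For TPC-1 at 48 h, ranges were -0.0791 to 0.11 for IFNAR1, -0.0663 to 0.12 for JAK1, -0.31 to 0.30 for STAT2, -0.10 to 0.20 for IRF2 and -0.0469 to 0.46 for SOCS1, and TYK2 ranged from -0.21 to 0.0003 in the line difference at 72 h. In the line difference at 48 h they were -0.0433 to 0.17 for JAK1, -0.65 to 0.0088 for IRF9 and -0.0728 to 0.23 for IRF2. For the change of the effect with time they were -0.51 to 0.0978 for STAT2 in TPC-1, and in Nthy-ori 3-1 -0.27 to 0.11 for IFNAR2, -0.54 to 0.12 for IRF9, -0.21 to 0.26 for IRF1 and -0.12 to 0.15 for IRF2. For siNT over time they were -0.0351 to 0.23 for IFNAR2 in TPC-1, and in Nthy-ori 3-1 -0.24 to 0.0021 for TYK2 and -0.0279 to 0.45 for IRF1. The cause was not tested. Median centring raised every difference in TPC-1 at 72 h by 0.0436.

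With the replicate block, SOCS1 in TPC-1 at 72 h (0.61, adjusted p = 0.00580) and STAT2 between the lines (-0.38, 0.0442) were called, and no other call among the 9 genes changed. STAT2 was also called after median centring (0.0433), and without single arrays its adjusted p ranged from 0.00406 to 0.191. TYK2 between the lines was called in 2 runs without single arrays (0.0449 and 0.0456). Over all genes the block moved the called genes from 31 to 78 in TPC-1 at 48 h, from 749 to 1303 in the line difference at 72 h, from 381 to 811 in the change of the effect in TPC-1, and with siNT over time from 391 to 1128 in TPC-1 and from 0 to 54 in Nthy-ori 3-1. With only the arrays of the comparison, 1 gene was called in TPC-1 at 48 h, 1507 at 72 h and 77 in the change of the effect. Without single arrays the called genes ranged from 485 (without TPC-1 siNT array 3) to 791 in the line difference at 72 h, from 176 to 812 in the change of the effect in TPC-1, and from 0 to 35 with siNT over time in Nthy-ori 3-1.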
